A study of Mus musculus with 13 samples.

Results

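The mouse microRNA families miR-297, miR-466, miR-467 and miR-669 were examined in primary neuroblastomas of TH-MYCN mice. Members were all mouse miRNAs on the array whose name carries one of these 4 family numbers, which gave 61 of 1079 mouse miRNAs. They comprised 3 forms of miR-297, 23 of miR-466, 12 of miR-467 and 23 of miR-669. The array names assigned 25 members to the 5p arm and 26 to the 3p arm, and 10 carried no arm.

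TH-MYCN mice carry a MYCN transgene under the tyrosine hydroxylase promoter, which is active in the sympathetic lineage, and develop abdominal neuroblastoma spontaneously. The labels described 6 tumours as wild type for caspase-8, from mice with no bone marrow metastasis, and 7 tumours as caspase-8 deficient, from mice with bone marrow metastasis. Caspase-8 starts the protease cascade of apoptosis downstream of death receptors. Genotype and metastasis changed together, so their parts cannot be told apart. The labels called the tumours biological replicates; their strain background, their age and the cells in which caspase-8 was lost were not stated in them. The tumours are called wild-type replicates 1 to 6 and deficient replicates 1 to 7, numbered as in the labels.

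Sfmbt2 encodes a Polycomb-group protein and is an imprinted gene expressed from the paternal allele in extraembryonic tissue. An intron of the mouse gene holds a large, tandemly repeated miRNA cluster, known for its expression in placenta and embryonic stem cells, and it has no counterpart in the human gene. Each hairpin can give a mature miRNA from its left side (5p) and its right side (3p), and a mature miRNA finds messenger RNAs mainly through its seed, bases 2 to 8. In the RefSeq gene table (GRCm38.p6), all 71 miRNA genes inside the span of Sfmbt2 on chromosome 2 belonged to these 4 families, including 12 copies of miR-669a, 10 of miR-467a and 8 of miR-466b. By name, 49 members matched genes inside Sfmbt2 and no gene elsewhere, 8 matched genes elsewhere, 3 matched genes at both places, and miR-466a-5p matched no gene. A name does not show which copy gave the signal, and the values of such closely similar members are therefore uncertain as to their source.

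The mature sequences shown here are those of 7 members encoded outside Sfmbt2, taken from RefSeq with coordinates in GRCm38.p6. No other member had a sequence in the source used. None of the 7 is a 5p form, and only miR-466i-3p has an arm in its name. The 7 sequences are of 2 kinds. Whether the 5p forms are of either kind was not tested. Capitals mark the seed.
miR-466j, chr10:60960802-60960824, plus strand: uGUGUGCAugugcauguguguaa
miR-669n, chr3:115979905-115979924, plus strand: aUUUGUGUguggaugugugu
miR-466k, chr3:85467396-85467418, plus strand: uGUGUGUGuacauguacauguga
miR-466i-3p, chr13:17747552-17747573, plus strand: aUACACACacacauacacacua
miR-466q, chr3:28419988-28420007, plus strand: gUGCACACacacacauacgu
miR-467f, chr11:69635419-69635439, minus strand: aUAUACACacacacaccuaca
miR-467g, chr5:34732872-34732892, minus strand: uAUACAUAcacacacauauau
No seed occurred in more than 1 of these 7 sequences. The first 3 were rich in G and U, which made up 73.9% of miR-466j, 90.0% of miR-669n and 69.6% of miR-466k. The other 4 were rich in A and C, and G and U made up 13.6% of miR-466i-3p, 30.0% of miR-466q, 14.3% of miR-467f and 28.6% of miR-467g.

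Each tumour was read on 1 Agilent one-colour array. Between 338 mouse miRNAs, in wild-type replicate 2, and 469, in deficient replicate 4, were detected by the scanner software. Levels are log2 of the scaled spot intensity, with a floor at 4.1; a value of 4.10 is therefore an upper bound. A difference is understated where the floor was reached in the lower group alone, and its bias has no known direction where both groups reached it, as in miR-466q and miR-466i-3p. Probes differ in brightness, so a level is compared between tumours and never between miRNAs. All 6 neural and neuroendocrine markers were detected on all 13 arrays, with mean levels of 12.78 to 13.85 in wild-type and 12.69 to 13.42 in deficient tumours. Of the other marker lists, 2 of 3 erythroid, 2 of 5 leukocyte, 1 of 4 skeletal muscle, 2 of 4 stromal and 1 of 2 endothelial miRNAs on the array were detected on all 13 arrays, and no marker on these lists was at 0 arrays. In bulk tumour RNA, fewer cells of a type and less RNA per cell cannot be told apart.

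Of the 61 members, 24 were detected on at least 6 arrays and were tested, 13 were detected on 1 to 5 arrays and 24 on none. The tested members were 15 of the 25 5p forms, 4 of the 26 3p forms and 5 of the 10 without an arm. Only 6 members were detected on all 13 arrays: miR-466h-3p, miR-466i-5p, miR-669b-5p, miR-669e-5p, miR-669l-5p and miR-669n. The 24 undetected members included 14 3p forms, 5 5p forms and 5 without an arm, among them miR-466k and miR-467g.

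The tested members with an arm in their names fell into patterns that followed it. Members detected on too few arrays to be tested did not all share these patterns. The tested 5p forms were lowest in deficient replicates 1 and 2 and highest in wild-type replicate 4. Their means were lower in the deficient group by 0.82 to 1.36 on the log2 scale. The tested 3p forms were highest in deficient replicates 2 and 5. Their group means were 0.23 to 0.49 higher in the deficient group. That direction turned for 3 of the 4 within 1 of 2 slides and, for miR-466f-3p, with another background correction (−0.02). With array weights the median of the 3p forms was −0.31 in place of 0.43. None of these group differences passed the test, and the groups overlapped for every tested member.

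By limma with Benjamini-Hochberg adjustment over 419 tested mouse miRNAs, 0 of 24 members had an adjusted p under 0.05, where the share over all tested miRNAs was 0% (0 of 419). At an unadjusted p under 0.05 the count was also 0 of 24, against 3.82% (16 of 419) of all tested miRNAs, of which 1.43% were lower and 2.39% higher in deficient tumours. The smallest unadjusted p of a member was that of miR-297c-5p, 0.0623, and the smallest adjusted p was 0.589. Means were lower in the deficient group for 17 of 24 members and higher for 7, whereas 45.8% of all tested miRNAs had the lower and 54.2% the higher mean. The median difference was −1.09 over the 24 members and 0.04 over all tested miRNAs. Non-overlapping groups occurred for 0 of 24 members and for 0.239% (1 of 419) of all tested miRNAs. The tested members had passed a detection filter and share sequence, so these counts describe them and are no test.

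**Figure D1:**
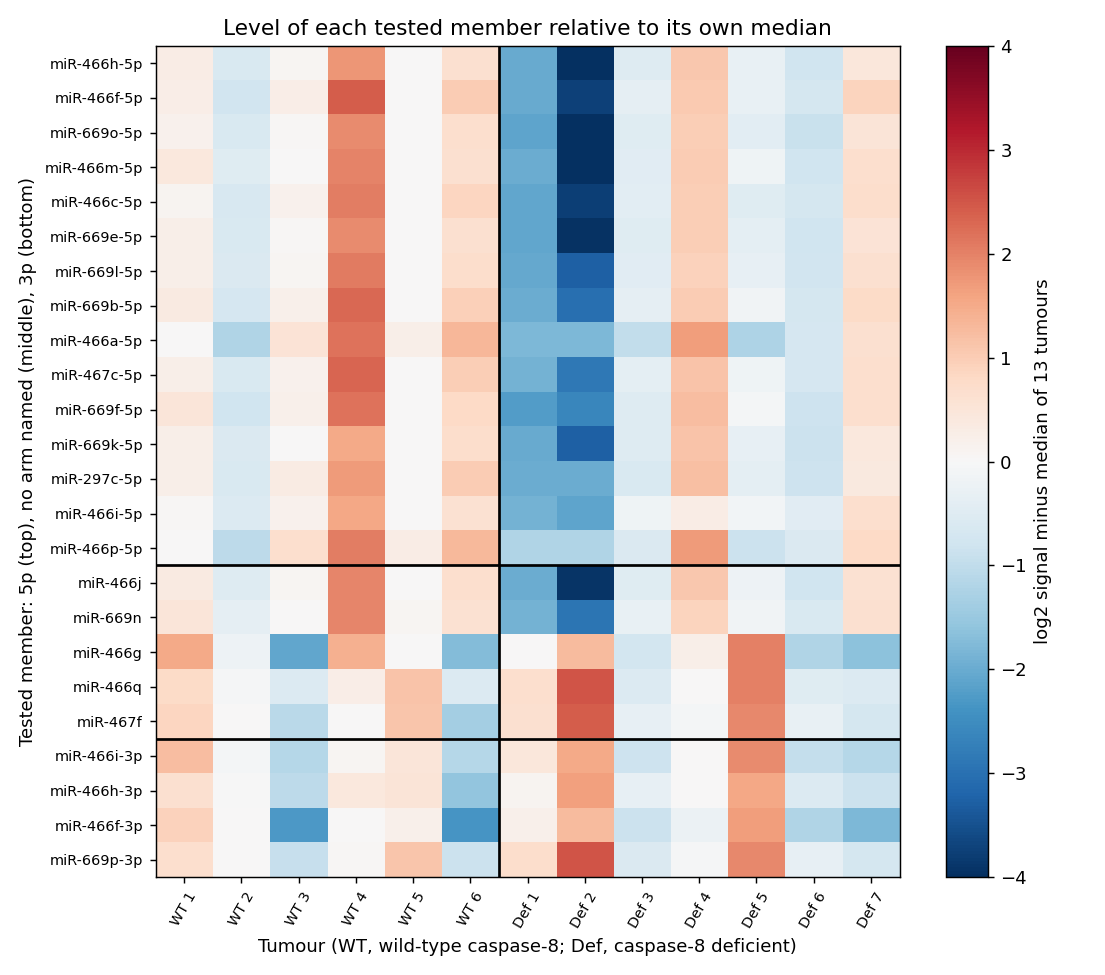
Level of each of the 24 tested members (rows) in each of the 13 tumours (columns), as log2 signal minus that member's median over the tumours; colours end at 4 in either direction. The 15 5p rows are darkest blue in deficient replicates 1 and 2 and reddest in wild-type replicate 4, and the 4 3p rows are reddest in deficient replicates 2 and 5.

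miR-466i-5p was detected on all 13 arrays. Its log2 level was 14.32 at the lowest, 14.98 at the median and 16.43 at the highest in the 6 wild-type tumours, and 12.77, 14.70 and 15.56 in the 7 deficient tumours. Deficient replicates 2 and 1 lay below every other tumour, at 12.77 and 12.98, and the other 5 deficient tumours lay within the wild-type range. The means were 15.18 ± 0.72 (SD, n = 6) and 14.34 ± 1.07 (SD, n = 7), a difference of −0.84 with a 95% interval of −1.86 to 0.17 (limma adjusted p = 0.589).

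miR-466h-5p had the most negative fitted difference of the members. Its log2 level ran from 8.53 over a median of 9.33 to 10.90 in wild-type tumours, and from 4.21 over a median of 8.63 to 10.23 in deficient tumours. The lowest tumour was deficient replicate 2 at 4.21, close to the floor, followed by deficient replicate 1 at 7.13. The difference was −1.36 ± 0.78 (SE), with a 95% interval of −3.04 to 0.31 (limma adjusted p = 0.589). Without deficient replicate 2 the difference was −0.71 and no longer the most negative, as it was then −0.76 for miR-466c-5p and miR-669o-5p and −0.75 for miR-669l-5p. A second 5p form of this family, miR-466c-5p, ranged from 7.24 to 9.92 in wild-type tumours and from the floor of 4.10 to 8.87 in deficient tumours, and differed by −1.25 ± 0.68 (SE).

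In the miR-297 family, miR-297c-5p was the only tested form. Its level was 5.47 at the lowest, 6.35 at the median and 7.78 at the highest in wild-type tumours, and 4.10, 5.45 and 7.26 in deficient tumours. Deficient replicates 1 and 2 were both at the floor. Deficient replicates 6 and 3, at 5.25 and 5.45, also lay below every wild-type tumour. Deficient replicates 4, 5 and 7 lay within the wild-type range. The difference was −1.05 ± 0.52 (SE), with a 95% interval of −2.15 to 0.06. It was −0.31 with a floor 4 times as high and −0.35 with the normexp background correction. In the miR-467 family, miR-467c-5p was the only tested 5p form. It ranged from 6.37 to 9.29 in wild-type and from 4.10 to 8.11 in deficient tumours, a difference of −1.11 ± 0.62 (SE).

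The 6 tested 5p forms of miR-669 had fitted differences between −1.27 and −1.09. For miR-669e-5p, the wild-type tumours lay between 8.26 and 10.75, and the deficient tumours between 4.92 and 9.85 with a median of 8.38. Deficient replicates 2 and 1 were again the lowest, at 4.92 and 6.77. Deficient replicate 6, at 8.06, also lay below every wild-type tumour, and the others lay within the wild-type range. miR-669l-5p ranged from 7.71 to 10.37 in wild-type and from 5.02 to 9.23 in deficient tumours and differed by −1.17 ± 0.63 (SE). miR-669o-5p ranged from 7.47 to 9.96 and from 4.10 to 9.06 and differed by −1.27 ± 0.69 (SE).

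**Figure D2:**
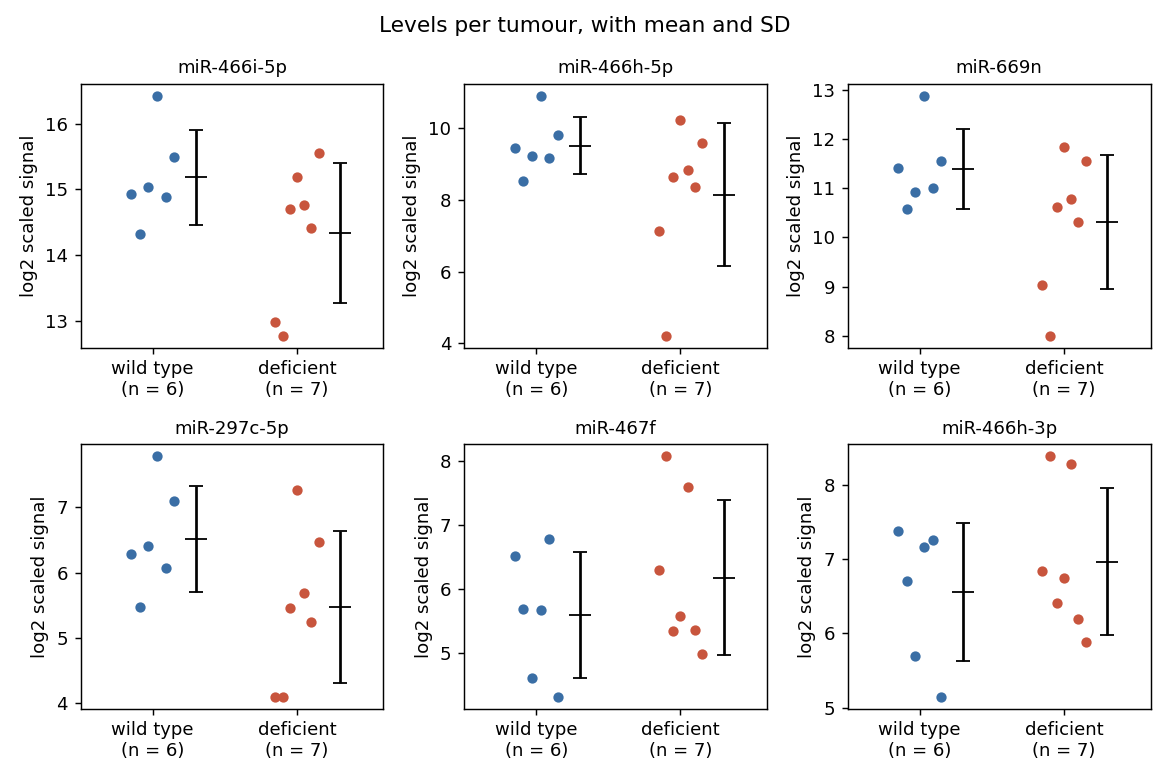
Log2 scaled signal of 6 members in each tumour (points), with the group mean and SD beside them, for 6 wild-type and 7 deficient tumours. In miR-466i-5p, miR-466h-5p, miR-669n and miR-297c-5p, 2 deficient tumours lie below all others, while in miR-467f and miR-466h-3p the 2 highest tumours are deficient; both groups overlap in every panel.

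The tumours kept nearly the same order in each tested 5p form. Wild-type replicate 4 was the highest tumour in 15 of 15 tested 5p forms, against 20.5% of all tested miRNAs. Deficient replicates 1 and 2 were the 2 lowest in 15 of 15, against 10.7% of all tested miRNAs. The mean log2 level of the 15 forms was 8.25, 7.34, 8.23, 10.02, 8.07 and 8.89 in wild-type replicates 1 to 6. It was 6.08, 4.93, 7.54, 9.13, 7.65, 7.30 and 8.66 in deficient replicates 1 to 7. Deficient replicates 4 and 7 were among the 4 highest tumours, and the other 5 deficient tumours lay below wild-type replicates 1, 3, 4, 5 and 6. Without deficient replicate 2, the median difference of the 5p forms was −0.75 in place of −1.15, without wild-type replicate 4 it was −0.84, and without deficient replicate 4 it was −1.45.

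The low tumours also detected fewer 5p forms. Of the 25 5p forms on the array, 4 were detected in deficient replicate 2 and 12 in deficient replicate 1, compared with 13 to 19 in the other 11 tumours. The number of mouse miRNAs detected in deficient replicate 2 was next to the lowest of the arrays, and so was its unscaled 75th percentile of signal. Wild-type replicate 2 was lowest in both and detected 13 5p forms. The part of array signal in the low count of deficient replicate 2 was not tested. The mean level of the skeletal muscle markers was lowest in deficient replicates 1 and 2, at 6.50 and 6.74, and highest in deficient replicate 4, at 13.13, but it was 8.72 in wild-type replicate 4 and 11.87 in deficient replicate 3. Its correlation with the 5p mean was r = 0.484 over 13 tumours. 1 of these markers, miR-206-3p, had r = 0.836 by itself and holds the motif UGUGU, described below. The part of muscle cells in the 5p values was not tested.

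Among the 3p forms, miR-466h-3p was detected on all 13 arrays. Its log2 level was 5.15 at the lowest, 6.93 at the median and 7.38 at the highest in wild-type tumours, and 5.89, 6.74 and 8.38 in deficient tumours. Deficient replicates 2 and 5 stood above every other tumour, at 8.38 and 8.28, and the remaining 5 deficient tumours lay within the wild-type range. The difference was 0.41 ± 0.49 (SE), with a 95% interval of −0.64 to 1.46 (limma adjusted p = 0.755). The deficient median was thus below the wild-type median although the deficient mean was above it.

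miR-669p-3p showed the same pair of high tumours, deficient replicate 2 at 8.57 and deficient replicate 5 at 7.98, while its wild-type tumours ranged from 5.14 to 7.15. It differed by 0.49 ± 0.55 (SE; limma adjusted p = 0.735). miR-466f-3p ranged from the floor of 4.10 to 7.39 in wild-type and from 4.65 to 8.13 in deficient tumours. Its highest tumours were deficient replicates 5 and 2, and its lowest were wild-type replicates 6 and 3. The difference was 0.45 ± 0.67 (SE; limma adjusted p = 0.817).

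Deficient replicates 2 and 5 were the 2 highest tumours in 4 of 4 tested 3p forms, against 8.11% of all tested miRNAs. The mean log2 level of the 4 forms was 6.99, 6.10, 4.77, 6.26, 6.69 and 4.64 in wild-type replicates 1 to 6. It was 6.48, 7.86, 5.48, 6.06, 7.88, 5.37 and 4.99 in deficient replicates 1 to 7. Deficient replicate 2 was therefore the lowest tumour for the 5p mean and next to the highest for the 3p mean. The median difference of the 3p forms was 0.43 over all tumours, 0.16 without deficient replicate 2, 0.17 without deficient replicate 5 and 0.11 without wild-type replicate 6. The 5p and 3p forms of miR-466h did not move together. miR-466h-5p was 4.21 in deficient replicate 2 and 9.80 in wild-type replicate 6. In the same tumours miR-466h-3p was 8.38 and 5.15. By contrast, both forms of miR-467a, too rarely detected to be tested, were highest in wild-type replicate 6, at 5.71 (5p) and 7.91 (3p).

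Detection filtered out most 3p forms, and the higher mean of those tested did not extend to all of them. Without the detection filter, 9 of the 26 3p forms had a higher deficient mean, 8 a lower one and 9 no difference because every value was at the floor; the median was 0.00. Of the 25 5p forms, 19 had a lower mean, 1 a higher mean and 5 no difference, with a median of −1.05.

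**Figure D3:**
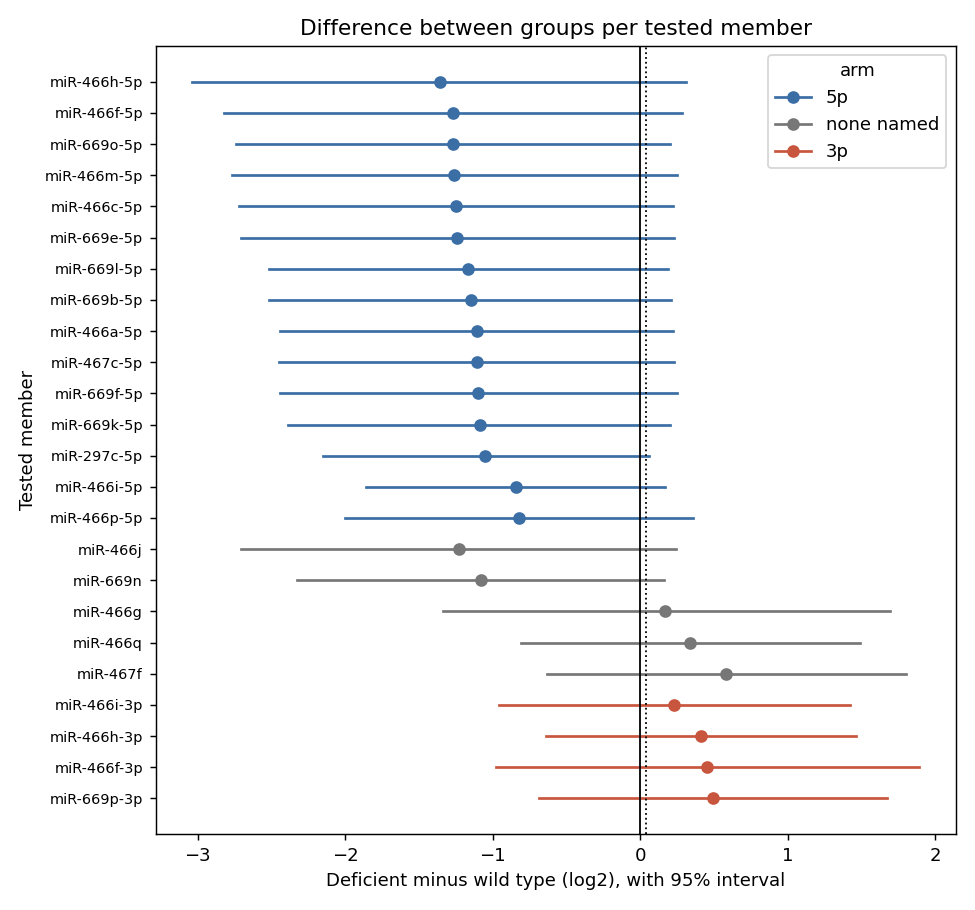
Fitted difference between groups (deficient minus wild type, log2) of each tested member, with its 95% interval; the dotted line is the median of all 419 tested miRNAs, 0.04. The 15 5p forms lie between −1.36 and −0.82 and the 4 3p forms between 0.23 and 0.49 (the 3p median is −0.25 within slide 1), and each interval includes 0.

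Members without an arm in their name divided between these patterns. miR-669n, rich in G and U, was detected on all 13 arrays and ranged from 10.57 over a median of 11.21 to 12.88 in wild-type tumours. In deficient tumours it ranged from 8.0 over a median of 10.62 to 11.83, with deficient replicates 2 and 1 the lowest, at 8.0 and 9.04. Its means were 11.39 ± 0.81 (SD, n = 6) and 10.31 ± 1.36 (SD, n = 7), a difference of −1.08 with a 95% interval of −2.33 to 0.16. miR-466j, also rich in G and U, ranged from 7.48 to 9.95 and from 4.10 to 9.10 and differed by −1.23 ± 0.69 (SE). Over the 13 tumours, the correlation with the mean of the 5p forms was r = 0.99 for miR-466j and 0.992 for miR-669n.

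The tested unarmed members rich in A and C, miR-467f and miR-466q, had the profile of the 3p forms. miR-467f ranged from 4.31 over a median of 5.68 to 6.78 in wild-type tumours and from 4.98 over a median of 5.58 to 8.08 in deficient tumours. Deficient replicates 2 and 5 were the highest, at 8.08 and 7.60, and the other deficient tumours overlapped the wild-type tumours. It had the most positive difference of the members, 0.58 ± 0.57 (SE), with a 95% interval of −0.63 to 1.80 (limma adjusted p = 0.693). The difference was 0.27 without deficient replicate 2, 0.08 with normexp and −0.13 with array weights. Its correlation with the mean of the 3p forms was r = 0.976 over 13 tumours, and that of miR-466q was 0.949. miR-466g was highest in deficient replicate 5, at 8.17, and wild-type replicate 1, at 7.67, reached the floor of 4.10 in wild-type replicate 3, and differed by 0.17 ± 0.71 (SE; limma adjusted p = 0.967). Each of these correlations compares miRNAs read on the same arrays and is a description.

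The arrays lay on 2 slides, with 2 wild-type and 5 deficient tumours on slide 1 and 4 wild-type and 2 deficient tumours on slide 2. The median difference of the 5p forms was −0.59 within slide 1, where 14 of 15 had the lower mean, and −1.21 within slide 2, where 15 of 15 did. With slide as a block it was −0.93. The median of the 3p forms was −0.25 within slide 1, where 3 of 4 were lower, and 0.57 within slide 2, so their direction did not hold within slides. With slide as a block it was 0.21. Within slide 1, miR-466f-3p differed by −0.66 and miR-466h-3p by −0.01, and miR-669p-3p by 0.24.

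Members were each read by 1 to 4 probes. Among the probes of tested members that exceeded the floor on at least 6 arrays, 30 of 30 probes for 5p forms had the lower mean in deficient tumours and 7 of 7 for 3p forms had the higher mean. The probes of unarmed forms divided into 6 lower and 3 higher. A member's level is the sum of its probes, so these counts largely repeat the member differences and are no separate evidence.

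The 13 members detected on 1 to 5 arrays included forms with many gene copies in Sfmbt2. The number detected was 5, 0, 2, 3, 0 and 9 in wild-type replicates 1 to 6 and 1, 4, 0, 4, 6, 0 and 1 in deficient replicates 1 to 7. Wild-type replicate 6 detected the most, 9 of 13, and was the only tumour with detected miR-297a-3p, miR-466b-3p, miR-467a-5p and miR-467b-5p. miR-297a-3p was nevertheless at the floor on every array after scaling. This tumour was singled out after its values were seen. Its array had the highest unscaled 75th percentile of signal, 1929, and 452 detected mouse miRNAs, next to the highest number; their part in these detections was not tested.

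miR-467a-3p, detected on 4 arrays, had a log2 level of 7.91 in wild-type replicate 6, 7.17 in deficient replicate 2, 6.17 in deficient replicate 5 and 6.16 in wild-type replicate 1. It was at or below 5.33 in the other 9 tumours. miR-669f-3p, detected on 5 arrays, was also highest in wild-type replicate 6 and deficient replicate 2, at 7.16 and 6.42. By contrast, the tested 3p forms miR-466f-3p and miR-466h-3p had their lowest value in wild-type replicate 6. miR-467e-5p, detected on 5 arrays, was highest in wild-type replicates 6 and 4, at 6.82 and 6.21. The remaining forms just below the filter were miR-669h-3p, on 5 arrays with 6.25 in deficient replicate 5, and miR-669c-3p, on 4 arrays with 5.87 in deficient replicate 2.

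**Figure D4:**
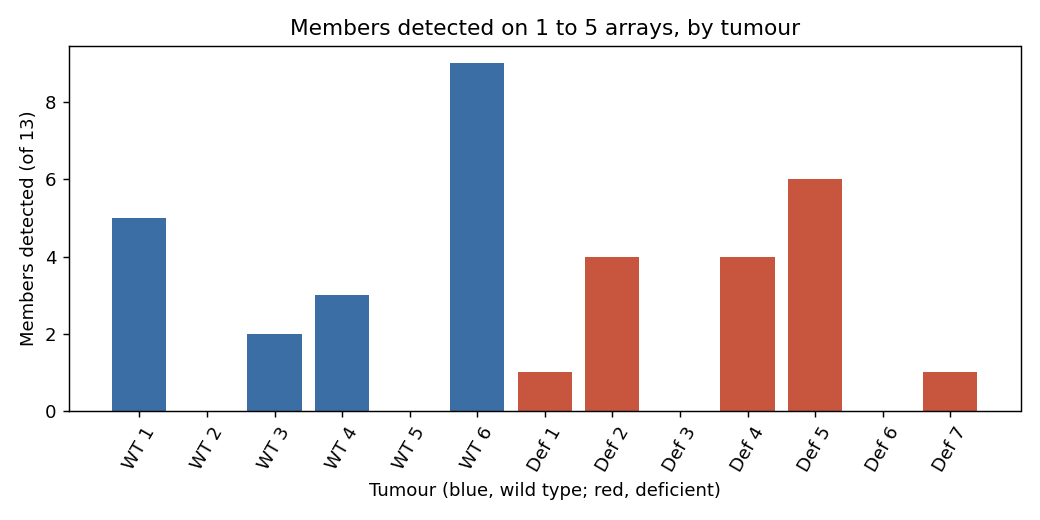
Number of the 13 members detected on 1 to 5 arrays that were detected in each tumour (bars; blue wild type, red deficient). Wild-type replicate 6 has 9, deficient replicate 5 has 6, and 4 tumours have 0.

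Both patterns occurred among members encoded inside and outside Sfmbt2. Of the members matched only to genes inside Sfmbt2, 15 of 49 were tested, with 12 lower and 3 higher means and a median difference of −1.11. Of those matched only elsewhere, 6 of 8 were tested, with 3 lower and 3 higher. The 3 lower ones, miR-466i-5p, miR-466j and miR-669n, had nearly the tumour order of the 5p forms inside Sfmbt2. The 3 higher ones were miR-466i-3p, miR-466q and miR-467f. The RefSeq table listed no miRNA gene of another family inside Sfmbt2 with which to compare them.

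Several miRNAs outside the families had a closely similar profile over the tumours. The 5 tested miRNAs with the highest correlation to the mean of the 5p forms over 13 tumours were miR-468-3p (r = 0.996), miR-672-5p (0.993), miR-195-3p (0.983), miR-3082-5p (0.981) and miR-32-3p (0.98). Without deficient replicates 1 and 2, the tumours farthest from the median, r was still 0.951 to 0.991. miR-468-3p ranged from 10.53 over a median of 11.18 to 13.03 in wild-type tumours and from 7.75 over a median of 10.60 to 11.88 in deficient tumours, and differed by −1.18 ± 0.62 (SE). For the 3p mean, the closest were miR-574-3p (r = 0.863), miR-3960 (0.851), miR-328-5p (0.838), miR-452-5p (0.827) and miR-1224-5p (0.794). Without deficient replicates 2 and 5, r for these 5 ranged from 0.488 to 0.905.

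**Figure D5:**
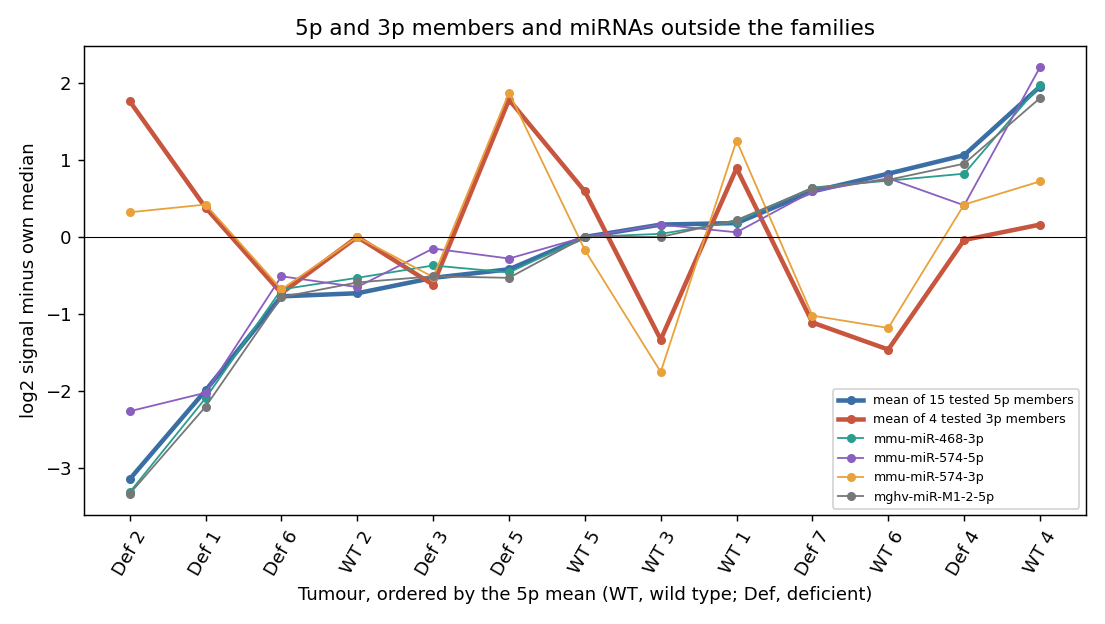
Log2 signal minus its own median over the 13 tumours, for the mean of the 15 tested 5p forms, the mean of the 4 tested 3p forms and 4 other probes or miRNAs, with tumours ordered by the 5p mean. The lines of miR-468-3p, miR-574-5p and the viral probe follow the 5p mean upward from deficient replicate 2 to wild-type replicate 4; the 3p mean peaks in deficient replicates 2 and 5.

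The letters these miRNAs share with the G- and U-rich members were counted in the mature sequences, read on the RNA strand as written. The motif UGUGU occurred in 3.57% (30 of 840) of the mouse miRNAs on the array with a RefSeq sequence. It occurred in 3 of the 7 members with one, and none of the 7 is a 5p form. Of 395 tested miRNAs outside the families, 18 had r of at least 0.9 with the 5p mean; 15 of these had a sequence, and 8 of the 15 held UGUGU, compared with 11 of all 314 tested miRNAs outside the families with a sequence. The sequences of 4 followers and 1 that did not follow are shown with UGUGU, overlapping copies joined, in capitals.
miR-574-5p: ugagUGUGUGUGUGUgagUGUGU
miR-1187: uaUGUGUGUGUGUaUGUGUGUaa
miR-672-5p: ugagguugguguacUGUGUGUga
miR-294-3p: aaagugcuucccuuuUGUGUGU
let-7b-5p: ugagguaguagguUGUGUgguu
The correlation with the 5p mean over 13 tumours was r = 0.971 for miR-574-5p, 0.977 for miR-1187, 0.993 for miR-672-5p and 0.976 for miR-294-3p, but −0.166 for let-7b-5p. Of the 11 tested miRNAs outside the families that held UGUGU, 8 had r of at least 0.9. Of the others, miR-206-3p had 0.836, let-7b-5p −0.166 and miR-1198-5p −0.156. The motif was thus present mostly in miRNAs with the profile but also in some without it, and a match is only a description of letters.

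The motif ACACA, read in the same way, occurred in 2.38% (20 of 840) of the sequences, in 4 of the 7 members and in 7 of 314 tested miRNAs outside the families. No miRNA outside the families reached r of 0.9 with the 3p mean. miR-574-3p, from the hairpin that also gives miR-574-5p, holds this motif, shown in capitals, and had the highest correlation with the 3p mean of the 7. The other 6, miR-329-3p, miR-342-3p, miR-362-3p, miR-377-3p, miR-410-3p and miR-541-3p, had r of −0.383 to 0.293.
miR-574-3p: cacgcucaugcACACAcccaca
miR-574-3p ranged from 4.10 over a median of 5.76 to 7.10 in wild-type tumours and from 4.83 over a median of 6.17 to 7.72 in deficient tumours. Its partner miR-574-5p ranged from 12.81 over a median of 13.57 to 15.66 and from 11.20 over a median of 13.18 to 14.05. As with miR-466h, the arms differed by tumour: wild-type replicate 4 was highest for miR-574-5p and deficient replicate 5 for miR-574-3p.

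miRNAs rich in G and U did not all have the 5p profile. Outside the families, 14 miRNAs on the array had at least 80% G or U, and 10 were tested, with 6 lower and 4 higher means and a median difference of −0.04. Of these, miR-574-5p, miR-1187, miR-672-5p and miR-3101-3p had r of 0.891 to 0.993 with the 5p mean, whereas let-7b-5p, let-7c-5p, let-7i-5p, miR-196a-5p, miR-1982-5p and miR-705 had r of −0.33 to 0.18. With at least 80% A or C there were 3 miRNAs on the array and 2 tested, with a median difference of 0.14.

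Other miRNA clusters of embryonic stem cells and trophoblast were examined for the same profile. The miR-290 to miR-295 cluster, which is highly expressed in mouse embryonic stem cells, had 14 forms on the array and 6 tested, with 3 lower and 3 higher means and a median difference of 0.03. Among them, miR-294-3p, which holds UGUGU, had r = 0.976 with the 5p mean and differed by −0.82, and the other 5 had r between −0.259 and 0.248. Of 10 forms of miR-302 and miR-367, the other large pluripotency-associated cluster, 0 were detected on any array.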

How the data were processed

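Total RNA (100 ng, extracted with Trizol) of 13 tumours was labelled with Cy3, per the labels' protocols. The deposited scanner files hold spot intensity, background-subtracted per the file headers and not scaled between arrays; detection and outlier marks are other values per the file headers. The headers name Feature Extraction version 10.7.3.1 and the submitters' processing notes 10.5.1.1. The deposited series matrix holds log2 values of the same arrays, with a median of 3.82 in every column. The method that made these values is not given in the sources used here. The matrix served as an alternative.

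Unflagged non-control spots were averaged per probe and summed per miRNA. Sums were scaled to each array's 75th percentile over 294 mouse miRNAs detected on all arrays, floored at 17.2 (percentile 1 of all detected values) and log2-transformed. Tests were run on 419 mouse miRNAs, those detected on 6 or more arrays, two-sided with limma 3.58.1 (R 4.3.3; lmFit, eBayes), Benjamini-Hochberg adjusted, threshold 0.05. On simulated data with 200 of 419 miRNAs changed, 66.4%, 93.4% and 99.4% of changes of log2 size 1, 2 and 4 were recovered. The simulated noise was drawn separately for each miRNA, and in the real data 0 of 419 passed. These shares are averages over all tested miRNAs. They do not give the recovery for the members, whose SE reached 0.78 in miR-466h-5p. Precision is limited by the number of arrays.

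Members and lists were chosen with earlier results of these data known. Members named were the 2 brightest tested per family and arm, the 5 of smallest p, both extremes of the difference and those detected on 4 or 5 arrays; outside the families, the 5 miRNAs most correlated with each arm's mean. Further members are named where a sequence or a count concerned them. Alternatives covered scaling, background, probe summary, filter, floor, slide, array weights, a replicate block and each tumour left out.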

Additional observations from a re-analysis of the deposited data

Results flagged for a closer look

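The array probe named mghv-miR-M1-2-5p, for a miRNA of a mouse gammaherpesvirus and outside the mouse miRNAs tested, was detected on 13 of 13 arrays. Its log2 level ranged from 8.25 over a median of 8.95 to 10.64 in wild-type tumours and from 5.51 over a median of 8.31 to 9.79 in deficient tumours, with the highest value in wild-type replicate 4 and the lowest in deficient replicate 2. Its correlation with the mean of the 15 tested 5p forms over 13 tumours was r = 0.997, and 0.995 without deficient replicates 1 and 2. Whether the signal came from viral RNA was not tested.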

How the results depend on the processing

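Under the 29 alternatives run, 0 members passed the adjusted threshold. The median of the 5p forms kept its sign in each. When 1 tumour was left out it was lowest at −1.45, without deficient replicate 4, and highest at −0.75, omitting deficient replicate 2, and it ran from −1.39 (replicate block) to −0.59 (normexp background) otherwise. The 3p median reached 0.11 when wild-type replicate 6 was omitted and 0.64 when deficient replicate 7 was, and was −0.31 with array weights and −0.25 within slide 1. The median of unarmed forms was −0.21 when wild-type replicate 3 was omitted and 0.46 when wild-type replicate 1 was. It was −0.64 with array weights and −0.70 within slide 1. Over members detected on all arrays it was −1.08, which is the value of miR-669n, the only unarmed form among them. Among named members the sign turned with array weights for miR-466h-3p (−0.14), miR-466f-3p (−0.45), miR-466g (−0.64), miR-467f (−0.13) and miR-669p-3p (−0.17), and within slide 1 for miR-466h-3p (−0.01), miR-466f-3p (−0.66) and miR-466g (−0.70). It also turned with normexp for miR-466f-3p (−0.02) and miR-466g (−0.07), and for miR-466g with the mean of log2 probe levels (−0.03), slide as a block (−0.02) and single tumours left out (−0.21 to 0.51). The causes were not tested. The other 10 named members never turned. The labels state no pairing by replicate number. Same-numbered tumours had correlations of −0.22 to 0.194, and 0 of 6 correlated best with their own number. Such correlations cannot show whether the numbers stand for a shared origin or handling. In the replicate block, deficient replicate 7 had no same-numbered partner and did not enter the difference. With the replicate block, 18 of 24 members had an unadjusted p under 0.05 by limma, against 63 of 419 of all tested miRNAs, and the smallest adjusted p of a member was 0.0794. The count was 16 members (53 of 419 overall) without deficient replicate 4, 7 (37) without deficient replicate 7 and 2 (30) without wild-type replicate 2, against 0 (16) with all tumours; the smallest adjusted p of these was 0.384. It was 1 member with the percentile over all miRNAs (25 overall), quantile normalization (20), normexp (22) and the series matrix (21). Leaving out scaling moved the median of all tested miRNAs from 0.04 to 0.23.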
